A study of Mus musculus with 4 samples.

Results

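The cell cycle control genes examined here are 40 mouse genes that drive or restrain cell division, taken from a list of gene names that sets no threshold on binding. The list was chosen with earlier results of these data known, so its shares below are not independent of them. They comprise 11 groups by role: D, E and A or B cyclins, cyclin-dependent kinases (CDKs), the Cip/Kip and INK4 inhibitors, the pocket proteins, the E2F factors, Myc with its relatives, the Cdc25 phosphatases, and a checkpoint group of Trp53, Mdm2, Wee1 and Chek1. All 40 were found among the 22350 protein-coding genes on chromosomes 1 to 19 and X. A peak was assigned to a gene when its midpoint lay in the gene body, in the 30 kb upstream of it or in the 5 kb downstream. By this rule the 40 genes held 66 of 17532 peaks in DP cells and 5 of 1516 peaks in iNKT cells.

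E2A ChIP-Seq, in which DNA crosslinked to the E protein E2A is pulled down with an antibody and sequenced, was performed on thymocytes sorted from L-DKO mice aged between 3 and 5 weeks. DP cells (CD1dTet- CD4+ CD8+) are immature thymocytes that carry both CD4 and CD8, and iNKT cells (CD1dTet+ TCRβ+) are the CD1d-restricted T cells that arise from them. Both cell types carried the same deletion of the E protein inhibitors Id2 and Id3 (Id2 f/f Id3 f/f LckCre+, with Cre driven by the Lck promoter and hence in T lineage cells), so no cells with intact Id genes were compared. The mice were C57BL/6, or hybrids of C57BL/6 and 129, and the cells of 3 to 4 mice were pooled per library. Each cell type had a single E2A library with its own input, so the spread between replicates is unknown, cell types were not tested against each other, and the confidence intervals below (95% Wilson) cover counting error only. The peak lists contain no read counts, so the depth of the libraries is unknown, and a gene without a peak had no peak called at that depth. Coverage and RNA were not analysed here, so neither the deletion nor the identity of the sorted cells could be checked against their markers. Each peak carries a score that MACS computed from the p-value of the peak, with higher scores for smaller p-values. The lowest score in either list was 50, and scores were used to rank, filter and summarise peaks within a list, never as amounts of binding between the lists.

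Cyclins are the regulatory partners of CDKs. Cyclin D with CDK4 or CDK6, followed by cyclin E with CDK2, phosphorylates the pocket proteins of the Rb family, which releases E2F factors to switch on the genes of DNA synthesis, while Cip/Kip and INK4 proteins hold the kinases back. E2A is a basic helix-loop-helix factor that binds E-boxes, and E proteins are known to restrain proliferation of developing thymocytes, whereas cyclin D3 is the D cyclin on which thymocyte expansion after the pre-TCR signal chiefly depends.

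The sequences below come from mm9, read on the forward strand, from the peaks that were called in both cell types and from the best DP peak of the 5 genes with the highest scores. Each is 60 bases with 1 E-box in capitals, the one closest to the midpoint of the peak or, for peaks of both lists, of the stretch that both share. CACCTG is CAGGTG read on the other strand.
Ccnd3, intron peak of both lists (chr17:47668525-47668584): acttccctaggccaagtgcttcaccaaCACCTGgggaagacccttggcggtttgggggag
Ccnd3, second intron peak of the same score (chr17:47679464-47679523): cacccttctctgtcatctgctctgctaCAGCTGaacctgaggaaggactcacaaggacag
E2f2, intron peak of both lists (chr4:135733547-135733606): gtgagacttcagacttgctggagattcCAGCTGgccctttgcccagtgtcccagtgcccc
Ccne1, intron peak of both lists (chr7:38889238-38889297): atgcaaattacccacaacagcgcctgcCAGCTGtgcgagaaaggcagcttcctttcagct
Cdkn1b, upstream peak of both lists (chr6:134866802-134866861): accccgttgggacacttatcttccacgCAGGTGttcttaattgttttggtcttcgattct
E2f1, upstream DP peak (chr2:154402604-154402663): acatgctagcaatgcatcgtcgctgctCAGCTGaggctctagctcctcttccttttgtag
Cdk2, upstream DP peak, bases within a coding exon of the neighbouring gene Pmel (chr10:128153331-128153390): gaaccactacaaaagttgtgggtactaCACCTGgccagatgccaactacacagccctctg
These letters are what the genome holds under the peaks and are not footprints of the protein.

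In DP cells, 23 of the 40 genes (57.5%) had an E2A peak, beside 41.3% of genes of like length and 39.2% of all protein-coding genes. Ccnd3 and E2f2 had the highest scores, and Ccnd3 and Cdkn1a had the most peaks. In iNKT cells, 5 genes (12.5%) had a peak, namely Ccnd3, Ccne1, E2f2, Cdkn1b and Rb1, beside 5.12% of genes of like length and 5.73% of all genes. At 4 of these 5 genes (10.0% of the 40) a DP and an iNKT peak overlapped, beside 3.85% of genes of like length and 4.27% of all genes, and Rb1 was the exception.

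The other measures gave the same order. A DP peak scoring 1000 or more was present at 8 genes (20%), beside 6.38% of genes of like length and 6.30% of all genes. This threshold was chosen after the values were seen, between best scores of 1041 and 410 at these genes, so this measure adds no support. A DP peak at the promoter, which covered the annotated 5′ end or had its midpoint within 1 kb of it, was present at 9 genes (22.5%), beside 13.1% and 11.8%. When each peak was given only to the gene with the nearest 5′ end, 18 genes (45.0%) kept a DP peak, beside 28.5% and 28.2%. The shares for the 40 genes were above both backgrounds in each of these 6 measures, 1 of which used the threshold set on these values. They are shares of a fixed list without replicates and were not tested. With the DP list shortened to the length of the iNKT list, the promoter share was 0%, beside 0.644% of genes of like length and 0.519% of all genes. Length did not differ much, with a median of 14.5 kb for the 40 genes and 15.4 kb for all genes.

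**Figure D1:**
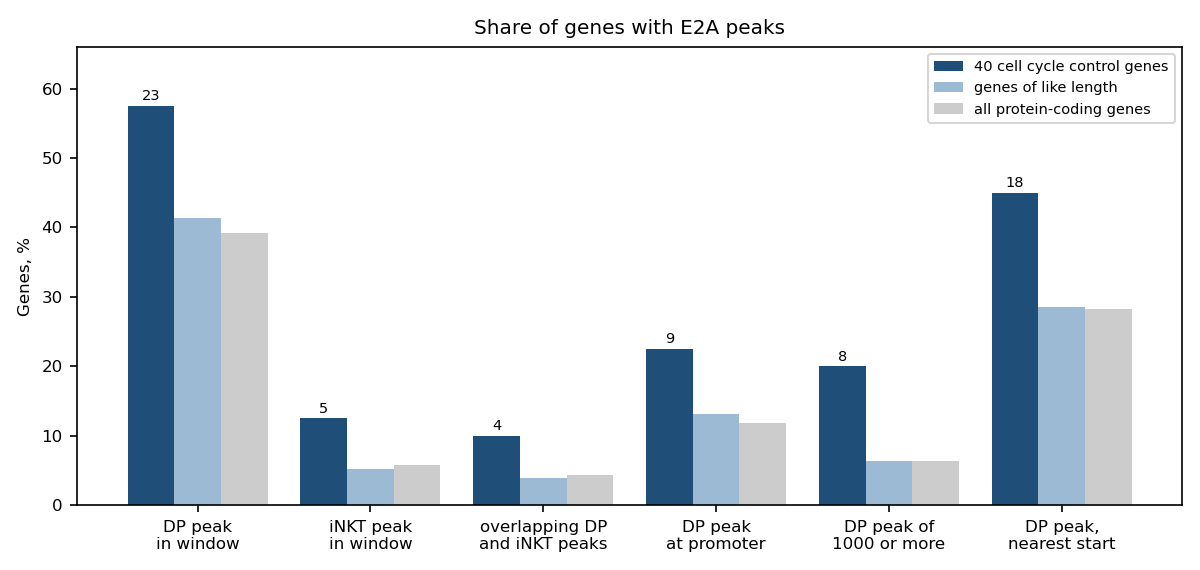
Share of genes (%) with E2A peaks by 6 measures, for the 40 cell cycle control genes (dark bars, with the number of genes above), genes of like length (light bars) and all 22350 protein-coding genes (grey bars). The dark bar was the highest in every measure, for example 57.5% beside 41.3% and 39.2% for a DP peak in the window.

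Among the genes with a DP peak, 11 had 1 peak, 12 had at least 2 and 8 had at least 3. The median was 2.0 peaks per gene, which is also the median over the 8771 protein-coding genes with a DP peak. Their best scores had a median of 223 and ranged from 53.7 to 3100, beside a median of 208 over those 8771 genes. The higher share of bound genes was thus not accompanied by more peaks per bound gene at the median. No DP peak fell in the windows of 2 of the 40 genes at once.

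**Figure D2:**
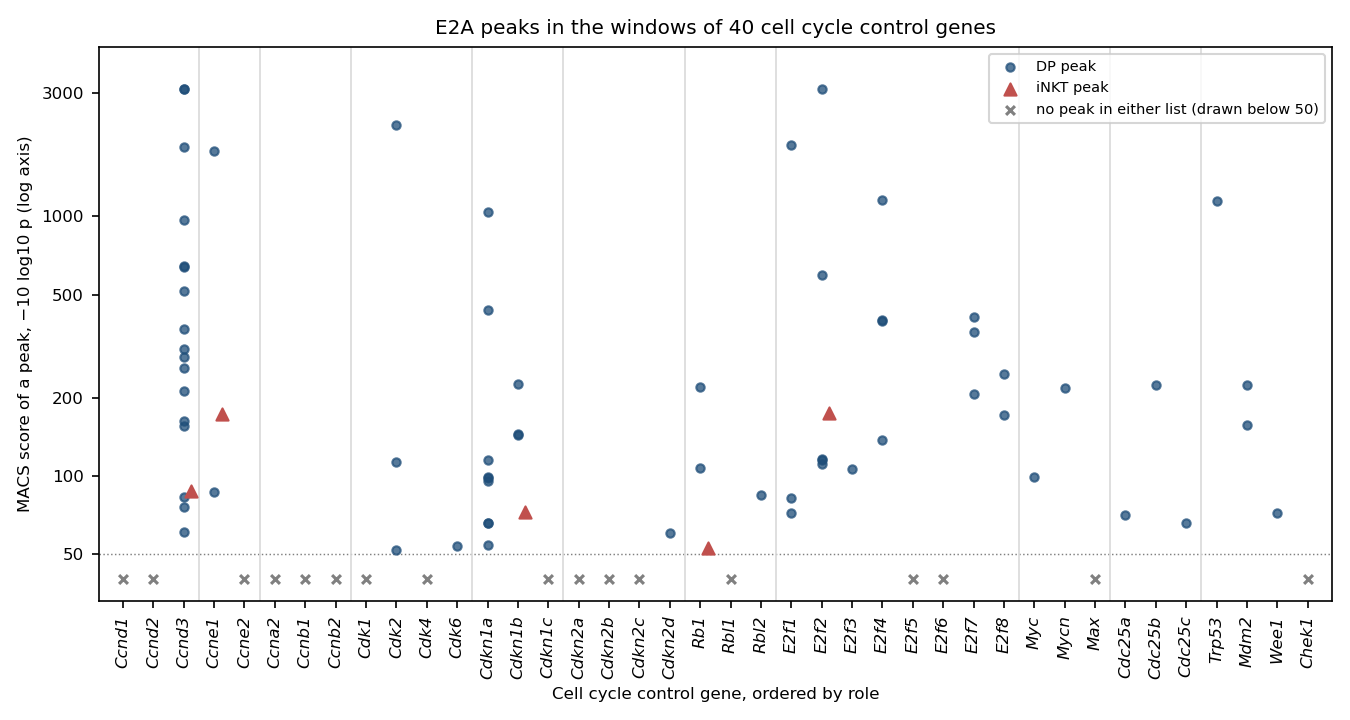
MACS score (log axis) of each DP peak (circles) and iNKT peak (triangles) in the windows of the 40 genes, ordered by role with grey lines between groups, and crosses below the lowest score of 50 for the 17 genes with no peak in either list. Ccnd3 carried 17 DP peaks, Cdkn1a 9, and no A or B cyclin had any.

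The D cyclins were split, with 1 of 3 bound beside 45.4% of genes of like length. Ccnd3, which encodes cyclin D3 (chr17:47642000-47736632, plus strand), had 17 DP peaks, whereas Ccnd1 and Ccnd2 had none. The nearest DP peak lay 91.1 kb from the start of Ccnd1 and 41.4 kb from that of Ccnd2. The 17 peaks of Ccnd3 were 25.8% of all DP peaks at the 40 genes, and 2 of 1117 genes in the same length class, Ccnd3 among them, had 17 or more. The mean in that class was 1.59 DP peaks per gene, and 26 of 22350 genes had as many as Ccnd3.

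Both of the highest Ccnd3 peaks lay in an intron. The peak 26.6 kb past the annotated 5′ end (chr17:47667471-47669743) and the peak 37.5 kb past it (chr17:47678110-47680853) scored 3100 each. This score was shared by 258 DP peaks and exceeded by 26, up to 3225, so they tied for rank 27 of 17532. So many identical values point to a set value rather than a computed p-value. The order among these highest peaks, rank 27 included, therefore cannot be relied on. The peaks at 17.3 kb, 29.0 kb, 3.54 kb, 8.30 kb and 6.61 kb scored 1854, 967, 646, 640 and 518. The promoter peak (chr17:47640694-47642610), whose midpoint was 0.348 kb upstream, scored 369, so 7 peaks deeper in the gene scored higher than the promoter. The other 9 peaks scored from 60.9 to 307.

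A second annotated start of Ccnd3 lies about 88 kb into the gene. A DP peak that scored 162 had its midpoint 1.82 kb past that start. Counted to the 5′ ends of genes, this peak and one that scored 287 were nearest to Bysl, at 16.2 and 10.7 kb, although the second start of Ccnd3 was closer to both, at 1.82 and 7.30 kb. An upstream peak that scored 83.2 was nearest to Taf8. The remaining 14 peaks had Ccnd3 as the nearest 5′ end. In iNKT cells, 1 peak was called (chr17:47668018-47669357), with a score of 87.6 and rank 670 of 1516. It lay inside the DP peak at 26.6 kb, so of the 2 DP peaks with the score of 3100 only the one closer to the promoter overlapped an iNKT peak.

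**Figure D3:**
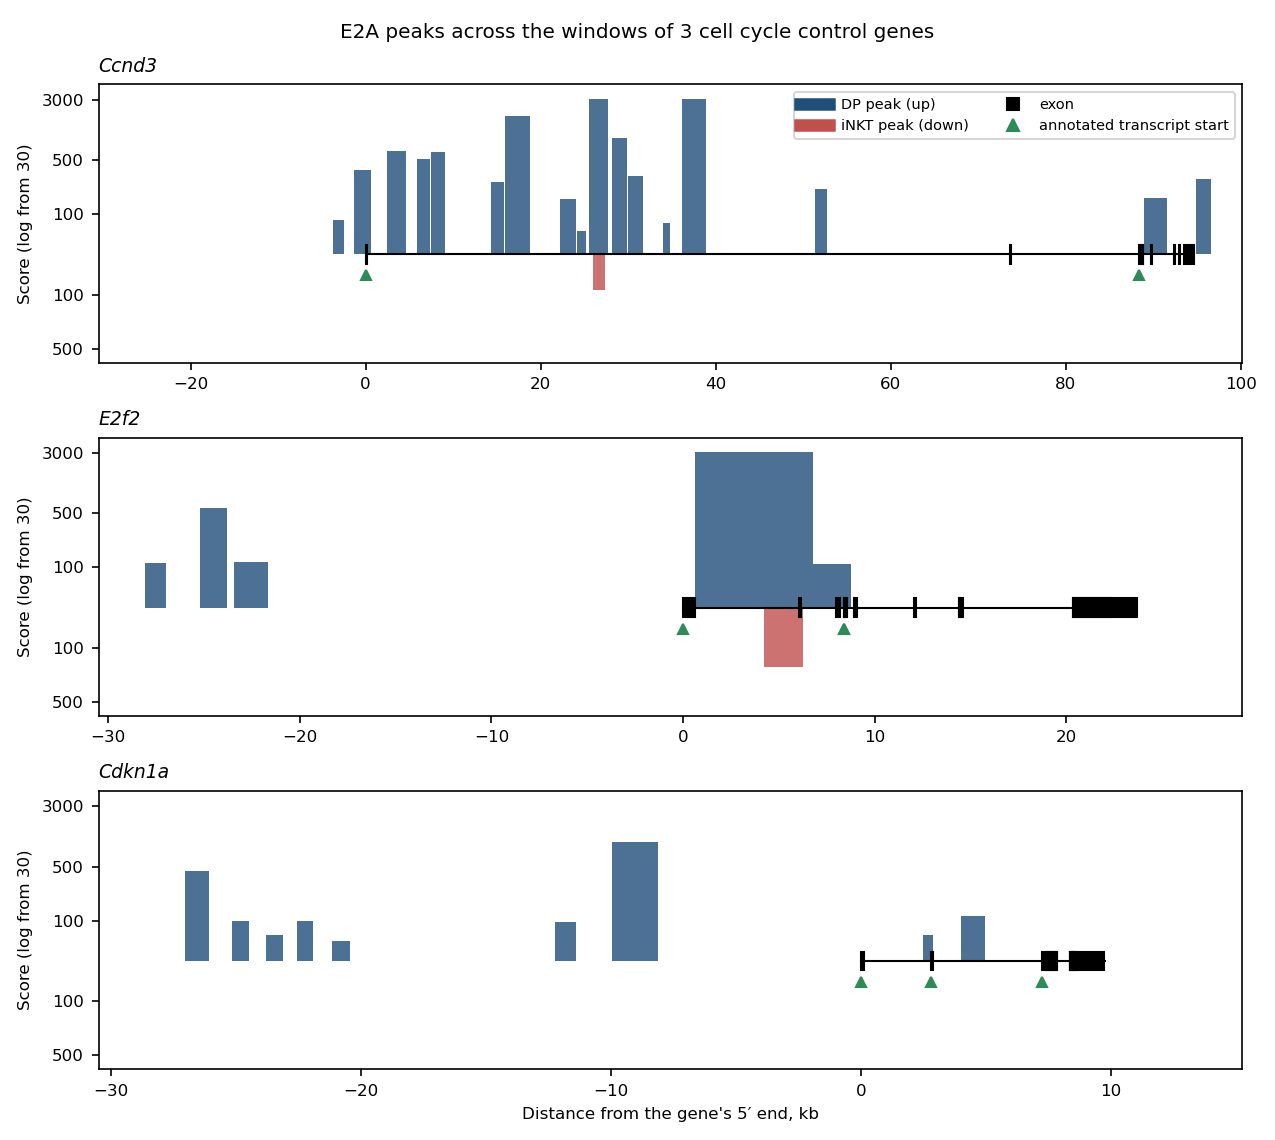
DP peaks (blue, upward) and iNKT peaks (red, downward) across the windows of Ccnd3, E2f2 and Cdkn1a, drawn by distance from the 5′ end in kb with their MACS score on a log axis that starts at 30, exons in black and annotated transcript starts as green triangles. Most Ccnd3 peaks lie in the first 52.0 kb past the 5′ end, the E2f2 peak of 3100 spans 6132 bp, and most Cdkn1a peaks lie upstream.

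The E cyclins, which partner CDK2 at the entry to S phase, also differed from each other, with 1 of 2 bound beside 40.5% of genes of like length. Ccne1 (chr7:38883003-38892553, minus strand) had a DP peak in an intron 3.31 kb past its 5′ end (chr7:38888585-38889899), with a score of 1781 and rank 762. The iNKT peak there (chr7:38888580-38889962) had nearly the same limits and scored 173, at rank 257 of 1516. A smaller DP peak 0.953 kb upstream scored 87.0 and was not called in iNKT cells. Ccne2 had no peak, and the nearest DP peak was 33.3 kb from its start, the shortest such distance among the unbound genes. Of the cyclins of S phase and mitosis, Ccna2, Ccnb1 and Ccnb2, none had a peak in either list, and their nearest DP peaks were 96.2, 135 and 80.8 kb away, so 0 of 3 were bound where genes of their length had a share of 39.0%.

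Among the kinases, Cdk2 and Cdk6 had DP peaks and Cdk1 and Cdk4 had none, which is 2 of 4 beside 39.5% of genes of like length. The best peak of Cdk2 (chr10:128134995-128142107, minus strand) scored 2257, at rank 543, and lay 11.2 kb upstream (chr10:128152472-128154231). It covered a coding exon of Pmel, a pigment cell gene, whose 5′ end was 10.0 kb from the peak and hence slightly closer than that of Cdk2. The peak at the Cdk2 promoter itself, 0.067 kb upstream, scored 113. Another peak, which scored 51.9, lay 0.02 kb from the start of Rab5b. Cdk6, a partner of the D cyclins, had 1 peak 154 kb into its body that scored 53.7, the lowest best score of the 23 bound genes. The nearest DP peaks of Cdk1, the mitotic kinase, and of Cdk4 were 192 and 44.0 kb away. None of the 4 kinases had an iNKT peak.

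The CDK inhibitors of the Cip/Kip family were bound at 2 of 3 genes, beside 35.1% of genes of like length, and those of the INK4 family at 1 of 4, beside 37.1%. With so few genes per family, no difference between the families can be read from these counts. Cdkn1a, which encodes p21 (chr17:29227924-29237667, plus strand), had 9 DP peaks, and the 5′ end of Cdkn1a was the nearest for all of them. Only 2 of 1117 genes of like length, Cdkn1a included, had 9 or more, as did 210 of all genes. The highest peak (chr17:29217970-29219799) lay 9.04 kb upstream and scored 1041, and the next lay 26.6 kb upstream and scored 437. The others scored 53.9 to 115, and 7 of the 9 were upstream of the gene. No promoter peak was called at the 5′ end used here, but a peak that scored 65.8 was centred 0.104 kb upstream of another annotated start. Within 100 kb of the 5′ end, 28 DP peaks were called, the most among the 40 genes. No iNKT peak was called in the window, and the nearest iNKT peak was 34.1 kb from the 5′ end, with a score of 122.

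Cdkn1b, which encodes p27 (chr6:134870419-134875531, plus strand), had 3 DP peaks. The highest, 3.43 kb upstream (chr6:134866256-134867725), scored 226, at rank 6309, and it overlapped an iNKT peak (chr6:134866496-134867417) that scored 72.6, at rank 861 of 1516. A peak over a coding exon, 0.687 kb past the 5′ end, scored 145. A peak 22.3 kb upstream scored 144 and lay 0.198 kb from the start of Gpr19. Cdkn1b was thus called in both cell types although its best DP peak ranked below the best peaks of Cdk2, E2f1 and Cdkn1a, which had no iNKT peak. It ranked above the other peaks of Cdk2 and E2f1 and above 7 of the 9 peaks of Cdkn1a. Cdkn1c, the remaining Cip/Kip gene, had no peak within its window, the nearest DP peak being 45.7 kb away. Among the INK4 genes, Cdkn2d had 1 DP peak with a score of 60.3, which was 27.8 kb upstream and nearest to Ap1m2. Cdkn2a and Cdkn2b, neighbours on chromosome 4, lay 430 and 446 kb from the nearest DP peak, the longest distances of all 40 genes, and Cdkn2c lay 72.0 kb from one.

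Of the pocket proteins, which hold E2F factors inactive until they are phosphorylated, Rb1 and Rbl2 had DP peaks and Rbl1 had none, with its nearest 69.9 kb away. Genes of like length had a share of 49.9%. Rb1 (chr14:73583480-73725629, minus strand) had a promoter peak 0.686 kb past the 5′ end that scored 220 and an intron peak at 10.0 kb (chr14:73715156-73716040) that scored 107. Its iNKT peak (chr14:73714134-73715099) scored 52.9, at rank 1358 of 1516, and lay beside the second DP peak without touching it. Rb1 was the 1 gene of the 40 with an iNKT peak and no overlap, and neither CAGGTG nor CAGCTG was found in that iNKT peak. Rbl2 had 1 intron peak that scored 84.5.

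The E2F family held the most bound genes, 6 of 8 (75%), with 18 DP peaks, beside 44.1% of genes of like length. E2f2, an activating E2F (chr4:135728309-135751972, plus strand), had a peak of 3100 (chr4:135728934-135735065) that began at the end of the first exon and was 6132 bp wide, where the median DP peak was 984 bp wide. The iNKT peak inside it (chr4:135732534-135734568) scored 174, at rank 254, the best iNKT rank among the 40 genes. A further DP peak at 7.79 kb scored 111. The 3 upstream peaks in the E2f2 window, with scores of 592, 116 and 115, lay 4.38, 6.33 and 1.35 kb from the 5′ end of Id3, the neighbouring gene that is deleted in these mice, and were nearer to it than to E2f2. Counted by nearest 5′ end, E2f2 therefore had 2 DP peaks and not 5. Within 100 kb of its 5′ end, 5 iNKT peaks were called.

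Of the other activating E2F genes, E2f1 had 3 DP peaks in its window and E2f3 had 1, and by nearest 5′ end E2f1 had 2, as many as E2f2. E2f1 (chr2:154385143-154395628, minus strand) had a peak 7.00 kb upstream (chr2:154401998-154403258) that scored 1891, at rank 700. Its peak 0.971 kb past the 5′ end scored 81.8, and another, downstream of the gene, scored 72.0 and lay 0.183 kb from the start of Necab3. E2f3 had 1 intron peak that scored 106. Of the E2F genes whose products mainly repress, E2f4 had a peak of 1160 (chr8:107821641-107823697) centred 1.11 kb past its 5′ end, and its other peaks, with scores of 398, 397 and 137, were nearest to Elmo3. E2f7 had peaks of 410 at 0.531 kb upstream, 360 at 3.26 kb upstream and 207 at 1.50 kb past the 5′ end, all nearest to E2f7. E2f8 had peaks of 247 and 171, at 27.4 and 7.09 kb upstream. E2f5 and E2f6 had none, and the nearest DP peaks were 293 and 70.9 kb away. E2f2 was the sole E2F gene with an iNKT peak.

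Myc, the growth-promoting factor that pairs with Max, had 1 weak DP peak (chr15:61814729-61815441) that scored 98.7, at rank 11066, 1.86 kb upstream. Mycn had 1 intron peak that scored 218, and Max had none, the nearest being 36.8 kb away. Each of the Cdc25 phosphatases, which activate CDKs, had 1 DP peak, with scores of 223 at Cdc25b, 70.7 at Cdc25a and 65.8 at Cdc25c. The Cdc25a peak was at the promoter, 0.369 kb upstream, whereas by 5′ ends of genes the Cdc25b and Cdc25c peaks were nearest to Spef1 and Kdm3b. The Cdc25b peak lay 2.83 kb from the 5′ end of Spef1 but only 1.24 kb upstream of another annotated start of Cdc25b. In the checkpoint group, Trp53, which encodes p53, had a peak of 1147 at 27.5 kb upstream, which was nearest to Dnahc2, 3.76 kb away. Mdm2, the ubiquitin ligase of p53, had 2 promoter peaks with scores of 223 and 157, centred 0.318 kb upstream and 0.611 kb past the 5′ end. Wee1, a kinase that inhibits CDK1, had 1 peak of 72.0 at 13.2 kb upstream, and Chek1 had none, its nearest DP peak being 259 kb away. The bound genes were 2 of 3 in the Myc group, 3 of 3 in the Cdc25 group and 3 of 4 in the checkpoint group, beside 38.4%, 40.1% and 42.2% of genes of like length. No gene of these groups had an iNKT peak.

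**Figure D4:**
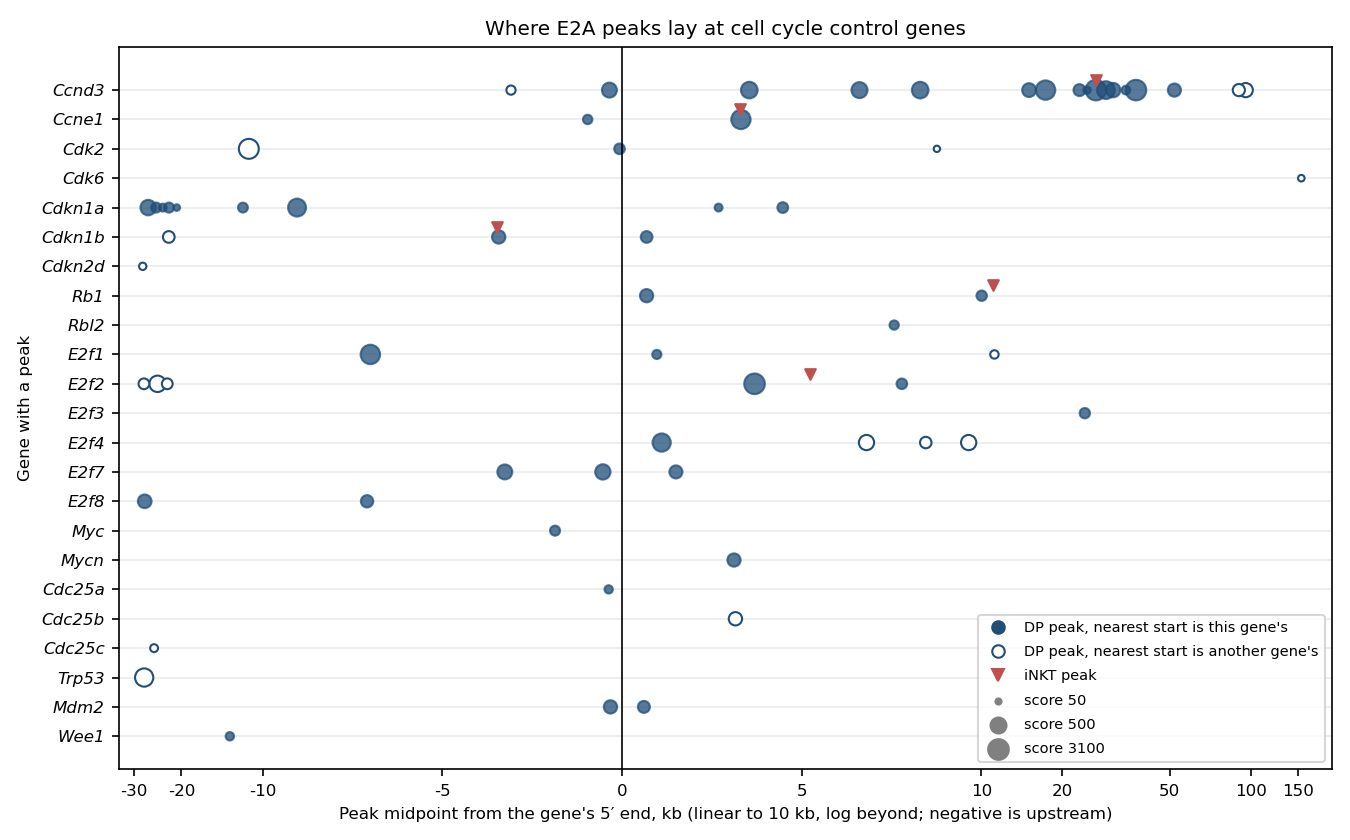
Position of each DP peak (circles, sized by score) and iNKT peak (triangles) relative to the 5′ end of the 23 genes with a peak, in kb, on an axis that is linear to 10 kb and logarithmic beyond. Open circles are peaks whose nearest 5′ end belongs to another gene, as for the upstream E2f2 peaks, the Trp53 peak and the best Cdk2 peak.

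The peaks were spread over the gene and its upstream region. Of the 66 DP peaks, 29 (43.9%) lay in introns, 29 (43.9%) upstream, 5 (7.58%) downstream, 2 (3.03%) over coding exons and 1 (1.52%) over a non-coding exon or UTR. Promoter peaks were 10 of the 66 (15.2%), beside 12.8% of all 20909 pairs of a DP peak and a gene window. The 9 genes with promoter peaks were Ccnd3, Ccne1, Cdk2, Cdkn1b, Rb1, E2f1, E2f7, Cdc25a and Mdm2, and the promoter scores ranged from 70.7 to 410. By this definition all promoter scores were below the 8 best scores of the 40 genes, which ranged from 1041 to 3100 and lay in introns or upstream. This depends on the limit of 1 kb, as the E2f4 peak of 1160 was centred 1.11 kb past the 5′ end. With a limit of 5 kb, that peak and the best peaks of Ccne1 (1781, at 3.31 kb) and E2f2 (3100, at 3.69 kb) would count as promoter peaks. None of the 5 iNKT peaks was at a promoter.

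The assignment to genes is uncertain where genes are crowded. The window of 20 of the 40 genes held the 5′ end of at least 1 other protein-coding gene, and at most 5. Of the 66 DP peaks, 48 (72.7%) had the 5′ end of the cell cycle gene as the nearest. By role, this left 1 of 4 CDKs, 0 of 4 INK4 genes, 1 of 3 Cdc25 genes and 2 of 4 checkpoint genes with a DP peak, beside 28.2% of all genes by that rule, and the other groups as before. At Cdk6, Cdkn2d, Cdc25b, Cdc25c and Trp53, no peak did, though another annotated start of Cdc25b was closer to its peak than Spef1. The 5 iNKT peaks were all nearest to the cell cycle gene in whose window they lay.

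As a set, the 66 DP peaks had a median score of 166, with quartiles of 96.3 and 407, beside 141, 76.2 and 366 for all DP peaks. Their median width was 1199 bp, and 10 of them (15.2%) scored 1000 or more, beside 9.51% of all DP peaks.

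E-boxes were searched on both strands as CAGGTG (with its other strand, CACCTG) and as the palindrome CAGCTG. Within 200 bp at the midpoint, CAGGTG was present in 26 of the 66 DP peaks (39.4%, interval 28.5 to 51.5), beside 43.9% of all DP peaks. In windows of the same size 2 kb away, 12 of the 66 (18.2%) held it, beside 15.8% for all DP peaks. CAGCTG was present at the midpoint of 20 of the 66 (30.3%, interval 20.6 to 42.2) and in the flanks of 8 (12.1%), beside 29.0% and 9.91% for all DP peaks. The intervals of the 66 peaks included the shares of all DP peaks for both E-boxes, so no difference in E-box content was detectable with this number of peaks. Over the whole width of the peaks, 61 of 66 (92.4%) held at least 1 of the E-boxes, beside 91.9% of all DP peaks.

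Few of the DP peaks at these genes overlapped a peak of the iNKT list. Of the 66 DP peaks, 4 overlapped an iNKT peak (6.06%, interval 2.38 to 14.6), beside 5.99% of all DP peaks, and of the 5 iNKT peaks 4 lay over a DP peak, beside 69.3% of all iNKT peaks. The iNKT list was much shorter, so the DP list was also shortened to its 1516 highest peaks. Of these, 9 lay at 7 of the 40 genes, and 3 of the 9 overlapped an iNKT peak (33.3%, interval 12.1 to 64.6), beside 33.6% of all 1516. At both lengths of the list the interval included the share of all DP peaks, so no difference in sharing was detectable with so few peaks. The overlapping peaks of Ccnd3, E2f2 and Ccne1 belonged to these 9, whereas the DP peak of Cdkn1b did not. The DP peaks of 2257 at Cdk2, 1891 at E2f1, 1160 at E2f4 and 1147 at Trp53 also belonged to them, and there the nearest iNKT peaks were 1037, 481, 325 and 1117 kb from the 5′ ends of the genes. Because the depth of the iNKT library is unknown, lack of a peak and lower depth cannot be told apart at these genes.

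The 17 genes without a DP peak had no iNKT peak either. They were Ccnd1, Ccnd2, Ccne2, Ccna2, Ccnb1, Ccnb2, Cdk1, Cdk4, Cdkn1c, Cdkn2a, Cdkn2b, Cdkn2c, Rbl1, E2f5, E2f6, Max and Chek1. Their nearest DP peaks were 33.3 to 446 kb from the 5′ end, with a median of 80.8 kb, and 6 of the genes had no DP peak within 100 kb.

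A further 60 cell cycle genes, which act with or downstream of those above, were close to the 40 genes in some measures and not in others. A DP peak was present at 34 of 60 (56.7%), beside 42.2% of genes of like length and 39.2% of all genes, and a promoter peak at 13 (21.7%), beside 13.2% and 11.8%. By nearest 5′ end, 21 (35%) had a DP peak, beside 29.4% and 28.2%, a smaller margin than at the 40 genes. Tob2 is not among the 21, because its promoter peak was nearest to its other annotation entry. A DP peak of 1000 or more was present at 4 (6.67%), beside 6.52% and 6.30%, so high scores were about as frequent as in the background. That threshold was chosen after the values were seen and fell between best scores of 1041 and 410 at the 40 genes. The lower share than at the 40 genes on this measure is thus not independent of the threshold. An iNKT peak was present at 5 (8.33%), beside 5.48% and 5.73%, and a DP peak overlapped it at all 5, beside 4.14% and 4.27%. The difference between the lists was not tested. These were Ccnf, which encodes the F-box protein cyclin F, Btrc, the substrate receptor of an SCF ubiquitin ligase, the replication licensing factor Mcm2, and the DNA damage genes Rad17 and Gadd45b. The Ccnf iNKT peak scored 370 and ranked 87 of 1516, above any iNKT peak at the 40 genes. The other 4 scored 57.4 at Btrc, 51.5 at Mcm2, 63.2 at Rad17 and 60.5 at Gadd45b. The highest DP scores were 3100 at Mcm2, 1297 at Gadd45b, 1095 at Aurka, 1082 at Btrc and 900 at Btg2, an antiproliferative gene. Of these, the Mcm2, Gadd45b, Aurka and Btrc peaks were nearest to Podxl2, Lmnb2, Cstf1 and Gm6807, and the Btg2 peak alone was nearest to its own gene. The iNKT peaks of Btrc, Mcm2 and Gadd45b were also nearest to another gene, whereas those of Ccnf and Rad17 were nearest to their own.

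By role, a DP peak was present at 6 of the 7 relatives and partners of Myc (85.7%), beside 43.0% of genes of like length. The same number of DNA damage checkpoint genes, 6 of 7, had one, beside 41.6%, as did 4 of 5 antiproliferative genes of the Btg and Tob families, beside 36.4%. Replication licensing genes, with 6 of 13 (46.2%), and mitotic kinase or spindle checkpoint genes, with 3 of 8 (37.5%), were near their background of 41.9% each. Ubiquitin ligase genes had one at 5 of 8, beside 43.6%, and proliferation marker genes at 2 of 3, beside 42.2%. Other cyclins, with 1 of 4 beside 39.0%, and genes of the CDK-activating kinase, with 1 of 3 beside 48.4%, were below theirs, and neither of the E2F dimer partners, Tfdp1 and Tfdp2, had a DP peak, beside 50% of genes of like length. By nearest 5′ end the counts fell to 5 of 7 relatives of Myc, 3 of 7 DNA damage checkpoint genes, 3 of 5 antiproliferative genes, 4 of 13 licensing genes, 2 of 8 mitotic genes, 1 of 8 ubiquitin ligase genes and 1 of 3 proliferation markers. By that rule 28.2% of all genes had a DP peak, so the licensing, mitotic and marker genes were near this share and the ubiquitin ligase genes below it. Tob2 is left out of the antiproliferative count only because its promoter peak was nearest to the start of its other annotation entry, 0.059 kb away. With that entry counted, the antiproliferative genes would stay at 4 of 5. The groups are small, and differences between them were not tested.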

How the data were processed

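E2A ChIP-Seq peaks of L-DKO DP and iNKT thymocytes were analysed. Per the submitters' notes and the study's methods, alignment to mm9 used Bowtie 1.1.2 with uniquely placed reads kept, and the authors called peaks against input with MACS 1.4.2. The deposited score is −10 times log10 of the p-value, at least 50, which is a p-value of 1e-05. Exactly 3100, the score of 258 DP and 4 iNKT peaks, may be a set value instead, so peaks at or above it were not ordered reliably. Read counts are not in these lists, so depth is unknown and intervals cover counting error only. Genes came from GENCODE M1 on NCBIM37, the same assembly as mm9. Genes of like length are those of the same stratum among 20 strata of gene length, averaged over the members. Overlap means at least 1 bp. The members and gene lists were chosen with earlier results of these data known. Given with full values were the genes with an iNKT peak, the 12 highest by DP score, the 5 with most DP peaks, and those without DP peaks, and of the further 60 genes those with an iNKT peak and the 5 highest. Other named genes were chosen after their values were seen. Tob2 has 2 entries in the annotation, and the longer was used, so a peak nearest to the other entry was not counted for Tob2 by nearest 5′ end. On simulated data, the functions passed 6 of 6 checks. Python 3.11.15, numpy 2.4.6, pandas 2.3.3, scipy 1.17.1 and pysam 0.24.0 were used.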

Additional observations from a re-analysis of the deposited data

How the results depend on the processing

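No paired analysis was possible because the results come from no test, and with 1 library per cell type no replicate could be left out. Of 29 values under alternatives, 21 stayed within 1.5 times the reported count or within the interval of the reported share. With peaks of score 100 or more, 2 genes (5%, beside 2.37% of all genes) had an iNKT peak and 2 (5%, beside 2.02%) had overlapping peaks. With the gene body alone, 15 genes held 32 DP peaks. With the DP list shortened to the length of the iNKT list, 7 genes had a DP peak (17.5%, beside 5.90% of all genes) and 33.3% of their peaks overlapped an iNKT peak. With a promoter of 5 kb, 15 genes had a promoter peak (37.5%, beside 18.2% of all genes), and with the whole peak searched, 84.8% held CAGGTG, beside 79.0% of all DP peaks. These 8 values moved because each setting removes peaks or changes the width examined. Outside that tally, promoter peaks fell from 9 genes to 4 (10%, beside 5.71% of all genes) with the gene body alone, where peaks centred upstream no longer count, and to 0, beside 0.519%, with the shortened DP list. The share of the 40 genes with a DP peak was above that of all genes under each alternative setting that could change it. Examples are 40% beside 28.3% with scores of 100 or more and 37.5% beside 20.4% with the gene body alone. Leaving out Ccnd3, an alternative added after the data were seen, left 49 DP peaks, 6.12% of them overlapping an iNKT peak and 42.9% with CAGGTG at the midpoint.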

Other observations

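Myc lies before a long stretch of DNA with few genes, and its window of 5 kb downstream does not reach into it. Within 500 kb downstream of the 5′ end of Myc, 11 DP peaks and 2 iNKT peaks were called, and within 2000 kb 23 and 5. The highest DP peak (chr15:62043167-62045148) scored 2754 and was 227 kb from the 5′ end, inside Pvt1, a long non-coding RNA gene (chr15:61869542-62209651). An iNKT peak that scored 338 (chr15:62043584-62044623) lay within it. The peak in the Myc window itself scored 98.7. No contact between this site and Myc was measured, and the peak was chosen after its value was seen.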
